A study of Mus musculus with 12 samples.

Results

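Mouse β cells express 2 insulin genes, Ins1 and Ins2, and Iapp, which encodes islet amyloid polypeptide, a hormone stored in the same granules as insulin. These 3 genes, out of 21757 protein-coding genes in the GENCODE annotation of mm39, were followed in whole genome bisulfite sequencing (WGBS) data with 10 kb on each side of the annotated gene. They were chosen by name, with earlier results of these data known, and no measured value was a criterion. Since GENCODE gives Ins2 long alternative transcripts, its window spans 84726 bp and 415 CpGs, against 142 CpGs for Ins1 and 150 for Iapp. Ins1 is an intron-poor copy of Ins2 that arose by retroposition, and Ins2 lies beside the imprinted Igf2 gene. In mammalian cells, DNA methylation at CpG dinucleotides is usually high across the genome and low at active promoters and enhancers, which appear as hypomethylated regions (HMRs).

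β cells were sorted from mice with the alleles Myt1cCre, Ngn3nCre, Rosa26eYFP and InsApple, and all groups share this genotype. The study's text names the last as an Apple reporter allele of Ins2, one of the members, and any effect of this allele on reads at Ins2 was not tested. The eYFP+ cells descend from progenitors that expressed Myt1 and Ngn3 together (M+N+), and the eYFP- cells from progenitors with Ngn3 but no Myt1 (M-N+). There were 2 libraries of each subtype at postnatal day 2 (P2) and 4 of each at postnatal day 60 (P60), and every library combined sorted cells of several batches of mice. The study's text describes combining the batches of a stage and sex, so P60 libraries of the same subtype and sex may share DNA. In the labels the reporter is called eGFP and the source is given as islet cells in general, although the titles name β cells. The read counts are pooled over the libraries of a subtype and stage, so that methylation levels, the percent of methylated reads, have no replicate error, and their 95% Wilson intervals cover counting error only. Single libraries gave the positions of HMRs without reads.

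The pools held on average 24.0 (P2 eYFP-), 24.2 (P2 eYFP+), 43.7 (P60 eYFP-) and 43.4 (P60 eYFP+) reads per CpG. In the 3 windows, this mean ranged from 24.4 to 34.4 reads at P2 and from 35.4 to 54.6 reads at P60. All P2 libraries belonged to 1 sequencing project and the P60 libraries to others, so stage and project cannot be told apart. Sex labels were at odds with the X chromosome in the P2 eYFP- pair. Of 253 X-chromosome HMRs present in every P60 male library and no P60 female one, the P2 eYFP- library labelled female had 91.7% and that labelled male 13.4%, while the P2 eYFP+ libraries followed their labels (13.0% and 83.8%). The members are autosomal. The promoters of 7 of 8 β cell markers, the members among them, were under 20% methylated in every pool, against 3 of 8 for markers of other islet cells and 0 of 6 for acinar cells. None of the promoters of the markers of leukocytes (3 genes), endothelial cells (3 genes) and stroma (3 genes) was under 20% in every pool, and 1 of 2 duct cell promoters was.

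The members differ in how many CpGs their start regions offer. The 250 bases before the annotated Ins1 start contain no CpG, which 8.26% of 27025 RefSeq promoters share, whereas those of Iapp contain 3. Both are shown because the low promoter methylation described next rests on so few sites. The Ins1 sequence lies at chr19:52264047-52264296 of GRCm38.p6, plus strand, and capitals mark the letters TAAT, read on either strand, and CCATCTG. The Iapp sequence lies at chr6:142298175-142298424 of GRCm38.p6, plus strand, and capitals mark its CpGs. Both were taken from RefSeq, where 2 of the 3 members had an entry.
Ins1: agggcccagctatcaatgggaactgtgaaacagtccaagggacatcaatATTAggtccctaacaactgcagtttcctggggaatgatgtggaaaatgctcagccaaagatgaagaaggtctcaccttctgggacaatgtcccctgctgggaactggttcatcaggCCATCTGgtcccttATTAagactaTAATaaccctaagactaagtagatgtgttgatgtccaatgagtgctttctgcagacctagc
Iapp: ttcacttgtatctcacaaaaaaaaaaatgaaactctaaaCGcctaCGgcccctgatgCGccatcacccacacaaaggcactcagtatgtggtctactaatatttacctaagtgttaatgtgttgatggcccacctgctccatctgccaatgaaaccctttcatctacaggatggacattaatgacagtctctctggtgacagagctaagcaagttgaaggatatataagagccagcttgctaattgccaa

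TAAT is the core recognised by homeodomain factors such as PDX1, and CCATCTG holds an E box. On both strands, TAAT matched 3 times in the Ins1 window and 5 times in the Iapp window, and 55.3% of all promoters held it. CCATCTG matched once in each, against 4.48% of all promoters.

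Coding stretches of the last exons, read from mm39, are shown because the changes with age described below include their CpGs, marked in capitals. The Ins1 stretch, its last 200 coding bases, spans chr19:52253186-52253385 and the Iapp stretch chr6:142249032-142249227, both on the plus strand, with 7 and 9 CpGs.
Ins1: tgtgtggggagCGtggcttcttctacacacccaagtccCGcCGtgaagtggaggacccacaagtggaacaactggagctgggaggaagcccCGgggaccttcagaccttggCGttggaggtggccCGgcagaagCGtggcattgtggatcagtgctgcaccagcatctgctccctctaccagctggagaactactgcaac
Iapp: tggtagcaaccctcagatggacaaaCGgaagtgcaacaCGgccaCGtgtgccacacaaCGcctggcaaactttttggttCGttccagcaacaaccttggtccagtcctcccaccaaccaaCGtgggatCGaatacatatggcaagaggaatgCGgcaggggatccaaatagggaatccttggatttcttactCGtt

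The promoters of all 3 genes were nearly unmethylated in both subtypes at both stages. A promoter was taken as the 500 bp before to 200 bp after the start of the canonical transcript. In Ins1 (start at chr19:52252735, plus strand) it held 1 CpG, with levels of 0%, 6.67%, 5.56% and 2.33% in the P2 eYFP-, P2 eYFP+, P60 eYFP- and P60 eYFP+ pools. The single site was covered by 31, 30, 36 and 43 reads, so the highest of these levels has an interval of 1.85% to 21.3%. In Ins2 (start at chr7:142233463, minus strand) 5 CpGs gave 3.03%, 0.637%, 1.80% and 2.93%. In Iapp (start at chr6:142244149, plus strand) 8 CpGs gave 2.02%, 4.85%, 1.43% and 0.323%. The highest of these 12 levels was the 6.67% of Ins1, from 2 methylated reads.

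CpG-poor promoters of this kind were mostly methylated elsewhere. Among the 4616 promoters with at most 8 CpGs, the median level was 67.9% in P2 eYFP- and 64.0% in P60 eYFP- cells, and at most 1.49% of them were lower than a member in any pool. By their levels in the 4 pools, the promoters nearest to that of Iapp were those of Chgb and Scg3, which encode granule proteins, and of Srpk2, at Euclidean distances of 0.859, 1.19 and 1.05 percentage points. Those nearest to Ins2 belonged to Cfap276 (0.830 points), Alkbh6 (0.903 points) and Btbd6 (1.04 points), and those nearest to Ins1 to Efcab10 (2.06 points), Krtap1-3 (2.13 points) and Btn1a1 (3.05 points). Of 20730 promoters, 8496 lay within 5 points of Iapp, 8936 of Ins2 and 447 of Ins1.

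No member's promoter was called in any of the 4 comparisons, where a call required an adjusted p under 0.05 (Fisher's exact test on pooled reads, Benjamini-Hochberg over all promoters) and a difference of at least 10 percentage points. The share of all promoters called was 0.217% between subtypes at P2 and 0.105% at P60, while 1.54% were called lower at P60 than at P2 in eYFP- cells and 2.83% in eYFP+ cells. Levels of at most 6.67% cannot fall by 10 points, so between stages a member's promoter could only have been called higher. Of all promoters, 4.36% were called higher at P60 in eYFP- and 4.23% in eYFP+ cells. Only Iapp in eYFP+ cells had an adjusted p under 0.05. Its level was 4.53 points lower at P60 (95% interval of the difference -8.39 to -1.88, adjusted p = 0.00711), under the minimum size of a call. For the lone CpG of Ins1 the intervals were wide, such as -5.37 to 21.3 points for eYFP+ minus eYFP- at P2, and smaller differences were not detectable at this depth.

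**Figure D1:**
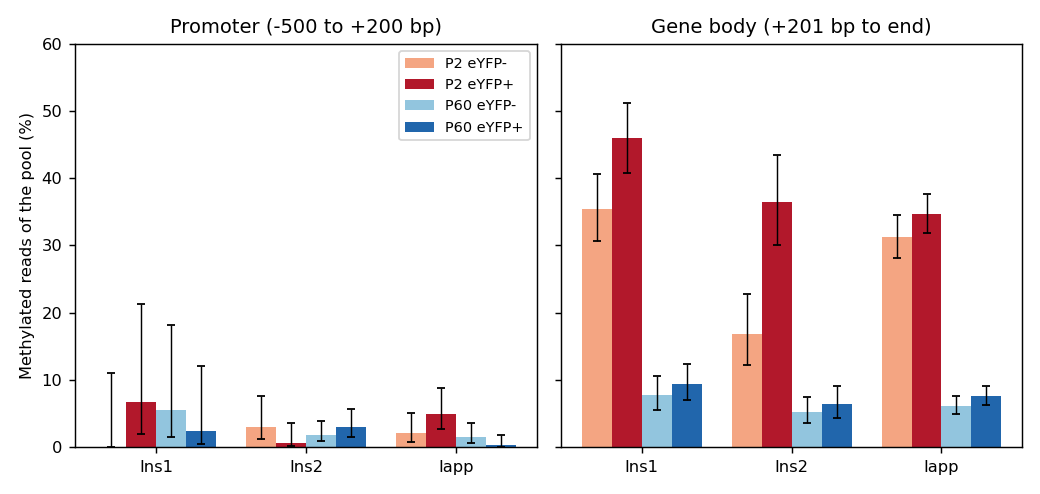
Methylated reads of each pool (percent, y axis) at the promoters (left) and gene bodies (right) of Ins1, Ins2 and Iapp, with 95% Wilson intervals of pooled reads as error bars. Promoters reached at most 6.67% in any pool, whereas gene bodies ranged from 16.8% to 46.0% at P2 and from 5.17% to 9.33% at P60.

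Downstream of the start the picture differed, and the gene bodies of all 3 members lost methylation between P2 and P60. The body was taken from past the first 200 bp after the start to the end of the canonical transcript, a region chosen after values had been seen. The Ins1 body (chr19:52252936-52253914, 12 CpGs) was methylated at 35.5% in P2 eYFP- and 46.0% in P2 eYFP+ cells, and at 7.67% and 9.33% at P60. It fell by 27.8 points in eYFP- cells (Fisher's exact test, adjusted p = 1.84e-21) and by 36.6 points in eYFP+ cells (adjusted p = 7.88e-32). The Iapp body (chr6:142244350-142249688, 32 CpGs) had levels of 31.2% and 34.7% at P2 and of 6.15% and 7.51% at P60. Iapp changed by -25.1 points in eYFP- cells ( 95% interval -28.6 to -21.6, adjusted p = 7.77e-49) and by -27.2 points in eYFP+ cells (-30.4 to -23.9, adjusted p = 4.49e-60).

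The Ins2 body (chr7:142232393-142233262, 9 CpGs) started from unlike levels in the subtypes. It was methylated at 16.8% (interval 12.2% to 22.7%) in P2 eYFP- and at 36.5% (30.0% to 43.5%) in P2 eYFP+ cells. At P60 both subtypes were low, at 5.17% and 6.34%. Ins2 fell by 11.7 points in eYFP- (Fisher's exact test, adjusted p = 9.18e-06) and fell by 30.1 points in eYFP+ cells (adjusted p = 1.22e-18).

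All 3 bodies were called lower at P60 in both subtypes, whereas 2.70% of all gene bodies were called lower in eYFP- and 5.22% in eYFP+ cells. The median body of all genes changed by -0.506 points in eYFP- and -1.30 points in eYFP+ cells. Ordered by the change among 21315 bodies from the largest fall, Ins1 ranked 10 in eYFP- and 4 in eYFP+, Iapp ranked 17 and 16, and Ins2 ranked 401 and 11. Only 3.44% of bodies had as few CpGs as Ins1, 2.40% as few as Ins2 and 11.3% as few as Iapp. A level over few CpGs can move further than one over many, and the bodies were not ranked among bodies of like CpG number. With limma on the log2 odds of the 4 pools, 2 against 2, the adjusted p were 0.00624 for Ins1, 0.0193 for Ins2 and 0.00557 for Iapp. The 2 pools of a stage are the 2 subtypes, which may share mice. The spread in this test is thus that between subtypes, not between mice. All tests on pooled reads compare pools of cells rather than mice.

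**Figure D2:**
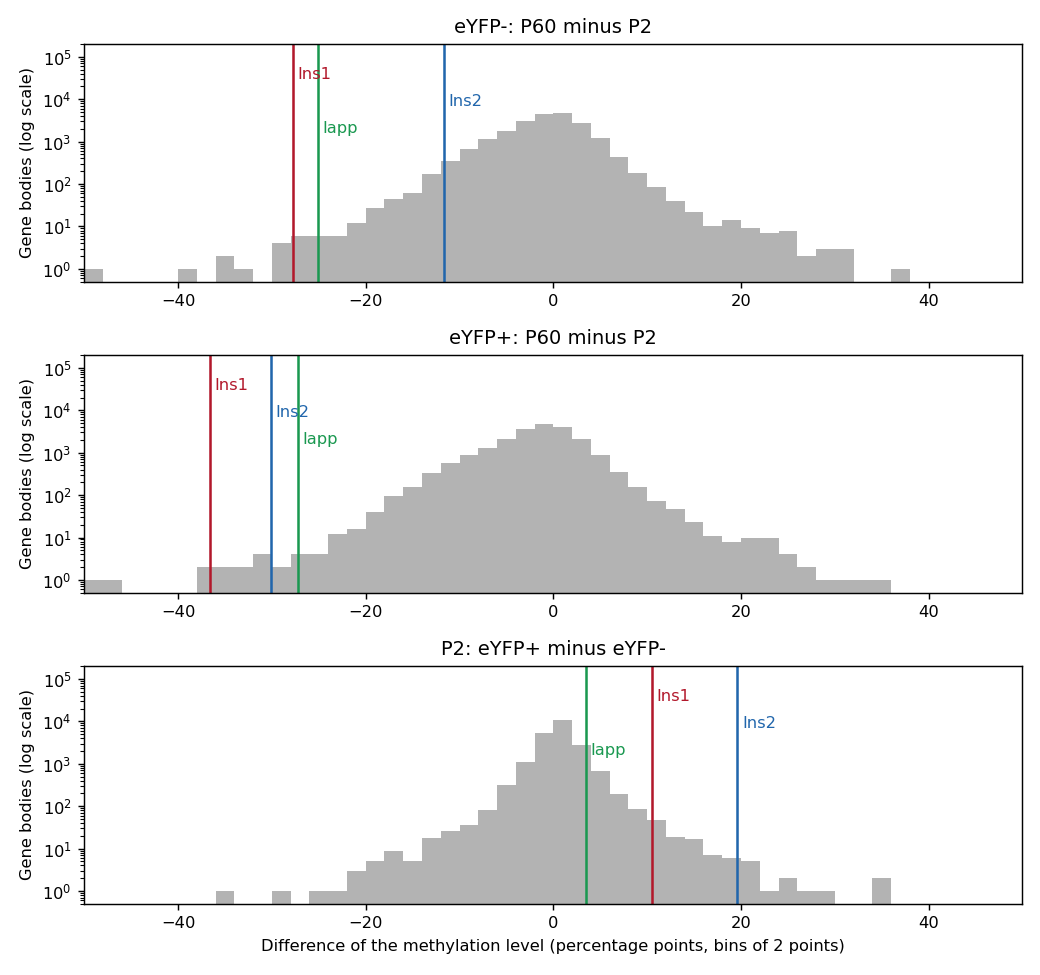
Number of protein-coding gene bodies (y axis, log scale) by difference in methylation level (x axis, percentage points, bins of 2) for P60 minus P2 in eYFP- (top) and eYFP+ cells (middle) and for eYFP+ minus eYFP- at P2 (bottom), with lines at the 3 members. The changes of Ins1 (-27.8 and -36.6 points) and Iapp (-25.1 and -27.2 points) lie at the left edge, and Ins2 stands 19.6 points higher in eYFP+ cells at P2.

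Inside the genes the loss was uneven, which was not tested. Falls were also called outside them, in the HMRs downstream of Iapp and 3' of Ins2 described below. In Ins1, exon 2 holds 11 of the 12 body CpGs and the coding sequence, and its level was 38.2% and 49.8% at P2 (eYFP- and eYFP+) and 8.38% and 10.1% at P60. The coding CpG at chr19:52253297 was methylated in 12 of 31, 21 of 30, 3 of 41 and 4 of 37 reads in the P2 eYFP-, P2 eYFP+, P60 eYFP- and P60 eYFP+ pools. The one at chr19:52253224 had levels of 55.6%, 64.3%, 9.68% and 10.3%. By contrast, the CpGs from chr19:52253645 near the end of exon 2 to chr19:52255382 in the 3' flank were lower already at P2, from 0% to 9.09% in eYFP- and from 0% to 19.4% in eYFP+ cells.

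In Iapp the first exon was at or below 2.00% in all pools, whereas exon 3, which encodes the mature peptide, was at 48.2% and 51.6% at P2 and at 10.8% and 11.3% at P60. Intron 2 fell between these, with 23.3% and 26.1% at P2 and 4.00% and 5.85% at P60. The CpG at chr6:142248839, in the last part of intron 2, had 75.0% in both P2 pools, 10.8% in P60 eYFP- and 12.2% in P60 eYFP+ cells. The coding CpG at chr6:142249090 had 61.5% and 71.0% at P2 against 13.6% and 9.76% at P60.

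In Ins2, exon 2, where translation starts, carried the highest levels, with 35.3% and 61.4% at P2 and 10.7% and 10.1% at P60. Exon 3 was at 5.26% and 18.0% at P2 and at 1.49% and 2.40% at P60. Coverage of Ins2 exon 2 was thin at P2, with a mean of 12.8 reads per CpG in eYFP- and 17.5 in eYFP+ cells. The CpG at chr7:142233104, for instance, was methylated in 37.5% of 8 reads in P2 eYFP- and in 66.7% of 18 reads in P2 eYFP+ cells, against 7.32% of 41 and 9.68% of 31 reads at P60.

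**Figure D3:**
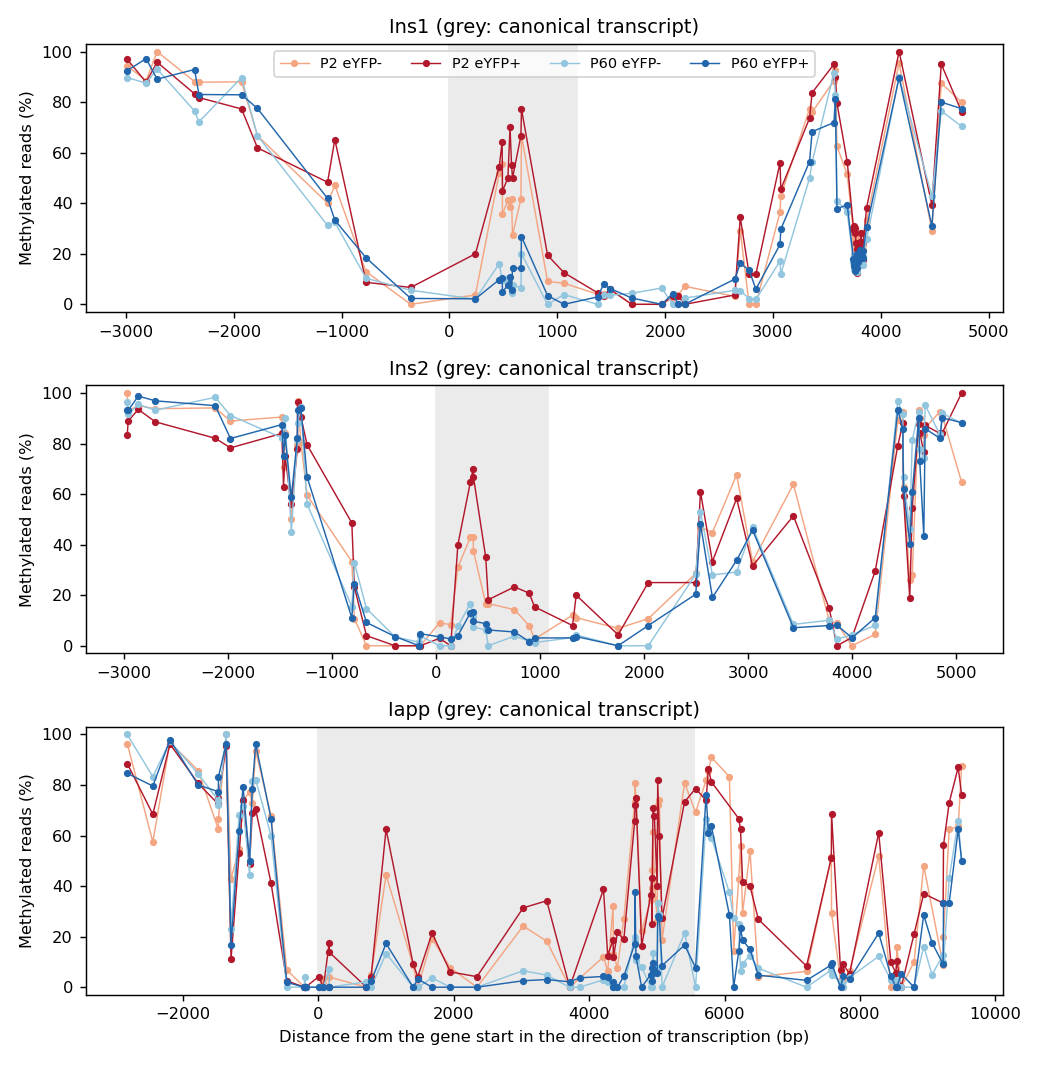
Methylation level (percent of reads, y axis) of each CpG with at least 5 reads by distance from the start of Ins1, Ins2 and Iapp (x axis, bp, in the direction of transcription) in the 4 pools, with the canonical transcript in grey. All pools are near 0 around the start, and the P2 pools rise to peaks inside the genes that are absent or lower at P60.

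Single CpGs were also tested across the genome with Fisher's exact test. In the 3 windows, 18 of 689 CpGs tested were called between stages in eYFP- cells, 15 of them lower at P60, and 25 of 694 in eYFP+ cells, all 25 lower. The share of all CpGs called lower was 0.0657% and 0.104%. Those lower in eYFP- cells comprised 12 around Iapp, 2 at Ins1 and 1 near Ins2, and those in eYFP+ cells 12, 8 and 5. The 3 CpGs that rose in eYFP- cells lay in the long Ins2 window, 2 of them at -19818 and -44209 bp from its canonical start, while 0.658% of all CpGs were called higher in eYFP- and 0.619% in eYFP+ cells. They were at chr7:142228884 (28.0% to 81.5%), chr7:142253281 (73.5% to 100%) and chr7:142277672 (38.7% to 81.5%). Between subtypes, Fisher's exact test called 0 of 686 CpGs at P2 and 0 of 702 at P60, where 1.04e-05% and 5.05e-06% of all CpGs were called. At an unadjusted p under 0.05 there were 22 and 26, against 2.72% and 3.42% of all CpGs.

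HMRs over the members were less methylated at P60 than at P2, by call in both subtypes for Ins1 and Iapp and in eYFP+ cells for Ins2. The HMRs of the 4 pools were merged, which gave 10 in the 3 windows of 87689 in all. Since every HMR is low in at least 1 pool by construction, levels inside them describe how the pools differ. The merged HMRs over Ins1 and Iapp have the bounds of a P60 pool's HMR, and the HMRs of the P2 pools there were shorter. The one 3' of Ins2 was an HMR only in the P60 pools. Lower levels at P60 inside these regions are thus partly fixed by how they were drawn, and their calls are no separate evidence of a fall. The HMR over Ins1 (chr19:52251962-52255808, 28 CpGs) fell from 20.6% to 6.22% in eYFP- and from 28.2% to 9.04% in eYFP+ cells. The HMR over Iapp (chr6:142243681-142249719, 41 CpGs) fell from 26.0% to 5.19% and from 30.2% to 6.12%. A second one just downstream of Iapp (chr6:142250219-142253381, 23 CpGs), inside Slco1a5, fell from 24.4% to 7.20% and from 30.6% to 10.9%.

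The HMR over Ins2 (chr7:142230966-142234274, 22 CpGs) fell from 20.8% to 6.91% in eYFP+ cells, while its change from 12.3% to 6.78% in eYFP- cells was under 10 points. The HMR 3' of Ins2 (chr7:142229240-142230027, 5 CpGs) fell from 20.4% to 6.63% and from 20.9% to 7.45%. In all, 4 of the 10 HMRs were called lower at P60 in eYFP- and 5 in eYFP+ cells, and 0 were called higher. The share of all HMRs called lower was 3.01% and 3.95%, and 28.0% and 26.6% were called higher, so the prevailing direction was the opposite of that at the members.

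The other 5 HMRs were not called in either subtype. One upstream of Iapp (chr6:142235249-142235990, 14 CpGs) stayed between 0.634% and 1.24% in every pool. One upstream of the canonical Ins2 start (chr7:142268136-142268910, 10 CpGs) had 10.2% and 13.0% at P2 and 7.83% and 4.90% at P60. The remaining ones, at chr7:142291568-142292020, chr19:52243943-52244666 and chr19:52256482-52256604, had levels from 6.06% to 24.5%.

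In the single libraries, HMRs covered more of the Ins1 and Iapp bodies at P60, while no stage difference was called for Ins2. Of the Ins1 body, HMRs covered 27.6% in each of the 4 P2 libraries, 95.9% in P60 eYFP- replicate 3 and 100% in the other 7 P60 libraries. The values of the stages did not overlap, and the cover was 71.9 points higher at P60 (27.6% ± 0 at P2, SD, n = 4, against 99.5% ± 1.44 at P60, n = 8). The two-sided exact permutation p was 0.00202, the smallest that 495 regroupings allow, with an adjusted p of 0.00894. The stage tests of cover took all libraries as independent. If same-numbered libraries of the subtypes share mice, or P60 libraries of the same subtype and sex share DNA, fewer regroupings are valid. These p are then too small. At P2, the Ins1 HMR began inside exon 2, at chr19:52253645, in every library of both subtypes. At P60 it began upstream of the start in 7 of 8 libraries.

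Of the Iapp body, HMRs covered 79.0% and 80.7% in the P2 eYFP- libraries and 80.7% in both P2 eYFP+ libraries. At P60 they covered 89.2% in eYFP- replicate 3 and 100% in the others (exact permutation p = 0.00202, adjusted p = 0.00894). The P2 HMRs ended in intron 2, and the P60 HMRs of 6 libraries ended at chr6:142249719, past the end of the gene. Of the Ins2 body they covered 100% in both P2 eYFP- and all P60 libraries, and 68.3% and 65.5% in P2 eYFP+ replicates 1 and 2. Over both subtypes its stage difference of 16.6 points was not called (exact permutation p = 0.0909, adjusted p = 0.188).

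Cover that rose with age was rare. Over 16296 bodies with an HMR in some library, 1.46% had an adjusted p under 0.05 and higher cover at P60, and 0.884% were higher at P60 without overlap, which Ins1 and Iapp both were. The number called lower was 5187, against 238 called higher. Of merged HMRs, 0.624% were called with higher cover at P60, and 3 of the 10 in the windows were, those over Ins1 and Iapp and that downstream of Iapp. The third rested on single libraries (adjusted p = 0.0370, 0.0531 to 0.101 when any of 11 libraries was left out, and 0.0221 without P60 eYFP- replicate 2). The first 2 did not overlap between stages, which held for 0.458% of merged HMRs. Both have the bounds of a P60 pool's HMR, so their higher cover at P60 is partly fixed by how they were drawn. Cover of the gene bodies does not depend on these bounds.

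**Figure D4:**
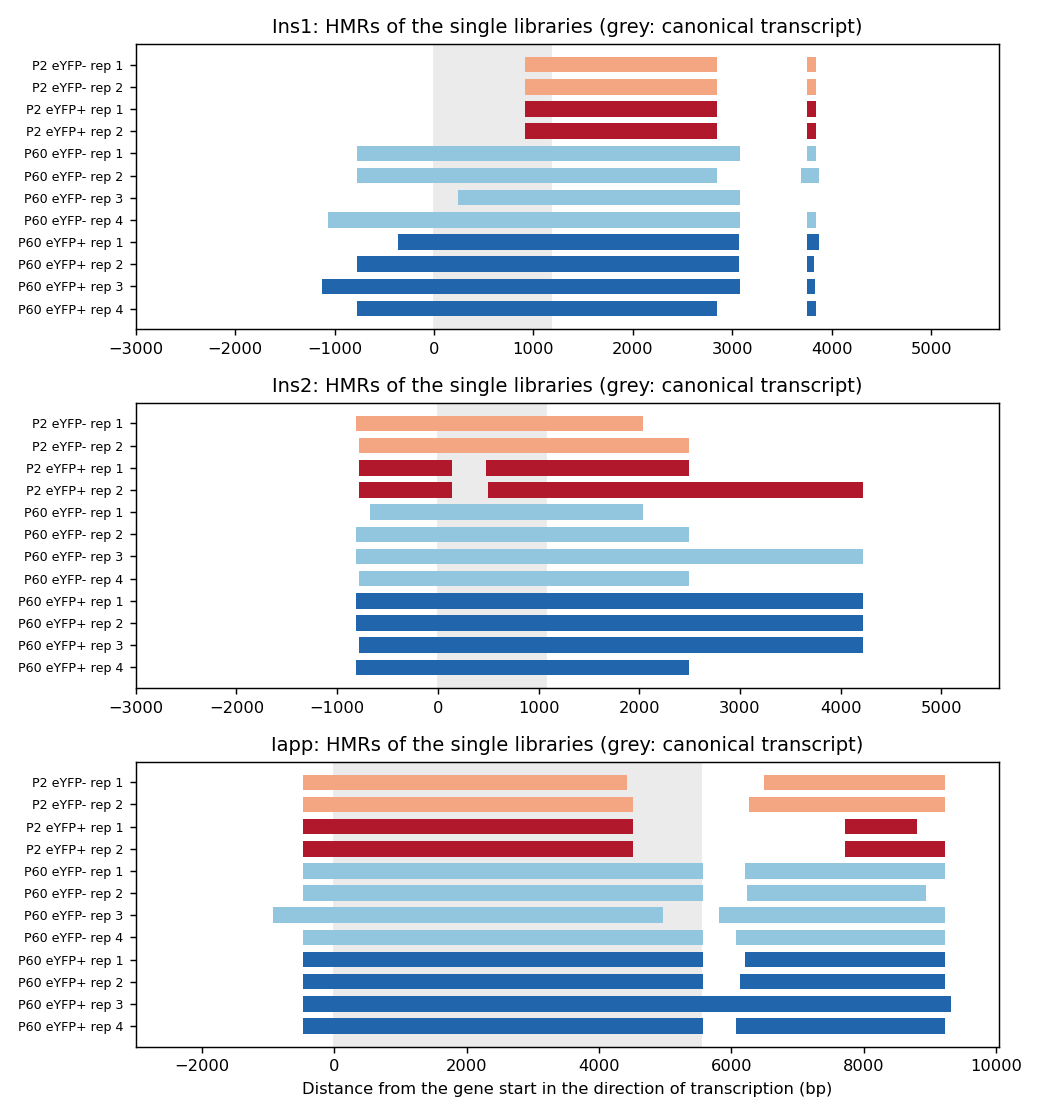
HMRs of each of the 12 libraries (rows, bars colored by subtype and stage) around Ins1, Ins2 and Iapp by distance from the gene start (x axis, bp, in the direction of transcription), with the canonical transcript in grey. The Ins1 HMR starts 910 bp after the start in all P2 libraries, the Ins2 HMR is interrupted in both P2 eYFP+ libraries, and the Iapp HMR reaches the gene end in 7 of 8 P60 libraries.

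Between the subtypes, the insulin gene bodies were more methylated in eYFP+ cells at P2. Ins2 was 19.6 points higher in eYFP+ than in eYFP- cells (95% interval 10.9 to 28.0, adjusted p = 3.39e-04) and ranked 14 among 21315 bodies. The limit that few CpGs set on ranks holds here too. Ins1 was 10.5 points higher (3.12 to 17.7, adjusted p = 0.0410). Iapp differed by 3.45 points (-0.908 to 7.76, adjusted p = 0.320). Thus 2 of 3 bodies were called, whereas 0.169% of all bodies were called in either direction.

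Each call was lost under 1 alternative. Ins2 was called in exons alone, at 26.0 points (adjusted p = 4.60e-04), but was no longer called, at 10.3 points, when CpGs under 10 reads in either pool were dropped, which removed the thinly covered CpGs of exon 2. Ins1 was no longer called in exons alone, at 11.6 points (adjusted p = 0.0504). The merged HMRs over Ins2 and Ins1 were 8.50 points (adjusted p = 0.0143) and 7.57 points (adjusted p = 0.0287) higher in eYFP+ cells, under the minimum size, and 0 of 10 HMRs were called, against 1.34% of all HMRs.

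In the single libraries at P2, the Ins2 HMR was interrupted in both eYFP+ libraries, from chr7:142232962 or chr7:142232986 to chr7:142233323, and in neither eYFP- library. The 2 subtypes did not overlap in cover of the Ins2 body, as in 18.1% of all bodies. The HMR downstream of Iapp was covered at 86.3% and 93.7% in eYFP- and at 34.4% and 48.0% in eYFP+ libraries. That at chr7:142268136-142268910 was covered at 100% in both eYFP- and at 58.6% in both eYFP+ libraries. These were 2 of 10 HMRs, near the background of 12.8%, and 2 libraries against 2 cannot give a p below 0.333.

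At P60 no member was called between the subtypes. The bodies of Ins1, Ins2 and Iapp were 1.65 points (-2.03 to 5.33), 1.17 points (-1.86 to 4.40) and 1.36 points (-0.639 to 3.35) higher in eYFP+ cells. The share of all bodies called was 0.0748% and that of HMRs 0.743%. No member body or HMR was separated between the 4 eYFP- and 4 eYFP+ libraries, against 0.988% of bodies and 0.510% of HMRs. The exact permutation test called 0% of HMRs at P60 and 0% at P2, and at an unadjusted p under 0.05 there were 447 and 0 HMRs, none of them a member's. The smallest p possible was 0.0286 at P60 and 0.333 at P2. Adjusted over 87689 HMRs, far more than 447 at that p would have been needed for a call at P60. At P2 no call was possible, so these zeros do not show a lack of difference.

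Whether the fall with age differed between the subtypes was tested by the difference of the log odds ratios. For the Ins2 body the unadjusted p was 0.0283 and the adjusted p 0.103, for Ins1 the adjusted p was 0.630 and for Iapp 0.870. The larger fall of Ins2 in eYFP+ cells did not pass this test. Of all bodies, 4519 of 21315 had an adjusted p under 0.05, so the lack of a pass in so few members says little. For the HMR over Ins2 the unadjusted p of the same test was 0.00843 and the adjusted p 0.191, where 988 of 84865 HMRs passed.

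The pathway around insulin was followed in lists of other genes. Of 16 genes for insulin production and granules, the bodies of 2 were called lower at P60 in eYFP- and of 3 in eYFP+ cells, and 0 higher, against 2.70% and 5.22% of all bodies called lower, and the list's median changes were -0.743 and -1.26 points. These were Chga, a granule protein (39.1% at P2 in eYFP- cells, a change of -20.1 points, and 39.8% to 19.3% in eYFP+ cells) and Ero1b, which oxidises proinsulin in the endoplasmic reticulum (56.9% to 37.5% and 58.1% to 39.9%). The third in eYFP+ cells, named after its values were seen, was the granule protein Scg2, at 66.8% to 54.0%, against 64.2% to 54.7% in eYFP- cells, and the difference between these changes was not tested. The promoter of Pam, a peptide amidating enzyme that also acts on IAPP, rose from 14.8% to 29.7% and from 14.6% to 31.8%, and no other promoter of the list was called.

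Of 13 transcription factors of the insulin genes, 0 promoters and 0 bodies were called in any of the 4 comparisons. Among the other islet hormones, the bodies of Ppy (35.4% to 66.1% and 34.5% to 69.6%) and Pyy (31.1% to 55.2% and 26.2% to 45.1%) rose with age, opposite to the members. The promoter of Pyy rose as well, from 50.5% to 73.7% in eYFP- cells and by 19.6 points to 69.6% in eYFP+ cells, and that of Ghrl rose in eYFP+ cells (63.8% to 77.0%), with 68.5% to 76.5% in eYFP- cells. The bodies of Gcg (81.7% to 74.0% and 81.1% to 72.5%), Sst (33.3% to 28.4% and 36.6% to 31.2%) and Ghrl (83.8% to 84.7% and 82.1% to 82.8%) were not called between the stages.

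Levels in the flanks differed by side and gene, and the flanks were not tested. Over the 10 kb before the promoter, Ins1 had 71.3% and 74.6% at P2 and 72.0% and 71.9% at P60, and Ins2 had 77.5% and 77.3% against 80.7% and 79.8%. Upstream of Iapp the levels were 53.1% and 55.1% at P2 and 54.5% and 58.0% at P60. Over the 10 kb downstream, Ins1 had 43.7% and 48.5% at P2 against 34.8% and 38.7% at P60. These levels depend on how many reads fell in the low HMR at chr19:52256482-52256604, which was not called. It held 1486 of 3093 downstream reads in P2 eYFP- and 3428 of 5757 in P60 eYFP- cells. In eYFP+ cells it held 1435 of 3438 at P2 and 2665 of 5050 at P60. Iapp, with a called HMR downstream, had 59.2% and 63.4% against 50.5% and 51.9%. Downstream of Ins2 the levels were 69.1% and 71.2% against 69.2% and 68.3%. The body of Slco1a5, which encodes an organic anion transporter and contains Iapp on the opposite strand, was at 67.1% and 66.7% at P2 and at 65.0% and 65.7% at P60. Gm49394, at the edge of the Ins2 window, had a body level between 30.1% and 31.6% in the 4 pools, and Igf2os, a noncoding gene on the other strand there, overlaps it. Ins1 and Ins2 share runs of identical sequence of up to 56 bases, and of up to 90 bases after bisulfite conversion, shorter than a read of 150 bases, and how the mapping placed reads within these runs was not tested.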

How the data were processed

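Transposase-based WGBS of sorted β cells was processed by the authors with Trim Galore 0.6.6, cutadapt 1.16, FastQC, SAMtools 1.5, abismal and MethPipe against mm39. The authors deposited counts of methylated and unmethylated reads per CpG for 1 pool per subtype and stage, and HMR positions per pool and per library. In the pooled files B1 was read as eYFP- and B2 as eYFP+, since the lengths of the authors' lists named for B1 and B2 match the study's text, and HMRs of 1 pool alone were covered more in the libraries of that subtype. The authors' lists and scores of differential methylation hold their own comparisons, and no other use was made of them.

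Levels were methylated over all reads with Wilson intervals, and differences had Newcombe intervals. Each pair of pools was tested with Fisher's exact test (two-sided) wherever both had 20 reads on a region or 10 on a CpG, and p-values were adjusted by Benjamini-Hochberg over all features of a kind (scipy 1.17.1, Python 3.11.15, GENCODE M39), and a call needed an adjusted p under 0.05 and 10 points. Library HMR cover was compared by exact permutation tests, and limma 3.58.1 (R 4.3.3) used log2 odds with a pseudocount of 1. The tests were tested on simulated data. Intervals cover counting error only. Same-numbered P60 libraries deviated together (r = 0.153, 0.194, 0.288 and 0.136 over 84472 HMRs), although replicate 2 correlated more with another number (0.210), and at P2 r was 0.00884. The alternative subtype tests with the replicate block took the numbers as pairs, and the stage tests did not. The members and lists were chosen with earlier results of these data known. Named were the members, their neighbours, the other islet hormones, the 3 nearest promoters per member and, of the lists, up to 4 genes called in both subtypes. Gene bodies, exons alone, limma and library cover of bodies were added after seeing the data.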

Additional observations from a re-analysis of the deposited data

Results flagged for a closer look

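In 26 groups of 4 P60 libraries, the percent of a region covered by HMRs was searched for a library far from the other 3 (by Dixon's test), and 10 stood apart. Chance marks about 1 in 20 groups, and the other libraries of such groups were mostly tied, which makes any departure count. Library eYFP- replicate 3 covered 95.9% of the Ins1 body, 89.2% of the Iapp body and 89.9% of the HMR over Iapp, below the others, and 100% of the HMR 3' of Ins2 (chr7:142229240-142230027), where eYFP+ replicate 4 had 0%. At the HMR over Ins2, eYFP- replicate 1 stood at 81.9% and eYFP+ replicate 3 at 99.2%. At chr7:142268136-142268910, eYFP- replicate 4 and eYFP+ replicate 1 both stood at 58.6%. At chr19:52243943-52244666, eYFP- replicate 4 stood at 100%.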

How the results depend on the processing

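Of 132 alternative counts of called members, 107 equalled the count reported, 17 were lower and 8 higher. The equal counts include those of library cover between subtypes, which were 0 throughout. There the smallest p with all libraries was 0.0286 at P60 and 0.333 at P2, too large to pass adjustment, so this agreement is no sign of robustness. Promoters of the members were also too low to be called lower at P60. Of gene bodies between subtypes at P2, 1 in place of 2 was called with CpGs of at least 10 reads in both pools (Ins2 at 10.3 points) and 1 with exons only (Ins1 at 11.6 points). Limma called 4 HMRs between stages, against 5 in eYFP+ cells. With the adjusted p alone, 6 and 7 HMRs between stages in eYFP- and eYFP+ cells, 2 HMRs between subtypes at P2 and 1 promoter between stages in eYFP+ cells were called. At an unadjusted p under 0.05, the CpGs numbered 22 and 26 between subtypes at P2 and P60, and 84 and 96 between stages in eYFP- and eYFP+ cells. Scored as presence of an HMR, by any overlap or over at least 50%, 0 merged HMRs differed between stages. With the replicate block, 0 HMRs were called between subtypes at P2 and at P60, but with pairs the smallest p possible is 0.50 and 0.125, so no call could be made. Leaving out each library gave 2 to 3 HMRs and 2 gene bodies called between stages in cover. Pooled levels allow no such removal. Depth limits the single CpG of the Ins1 promoter and the CpGs of Ins2 exon 2 at P2.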
